A study of Mus musculus with 2 samples.

Results

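Nuclear genes for the oxidative phosphorylation machinery were described in native mouse eosinophils. The genes were taken by symbol: Nduf genes of the a, b, c, s and v series for complex I, Sdha to Sdhd for complex II, Uqcr genes and Cyc1 for complex III, Cox4 to Cox8 genes for complex IV, Atp5 genes for complex V, and Cycs for the carrier cytochrome c. This rule found 86 of the 23343 genes in the tables. RNA came from C57BL6J animals kept without treatment; cells positive for CCR3 and SiglecF were sorted from bone marrow pooled over an unstated number of animals. There were 2 independent sorts, called sort 1 and sort 2, which form 1 group, so no comparison between conditions exists. Poly(A) RNA was sequenced with strand-marking dUTP libraries, and levels are given as the deposited RPKM, reads divided by transcript length and library depth.

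Oxidative phosphorylation makes ATP in the inner mitochondrial membrane. Complexes I and II take electrons from NADH and succinate and pass them by ubiquinone to complex III, cytochrome c carries them to complex IV, which reduces oxygen, and complex V uses the resulting proton gradient to make ATP. Complexes I, III, IV and V also hold subunits made inside the mitochondrion, none of which was among the genes described here, and eosinophils, like other granulocytes, are known for strong glycolysis beside a functional mitochondrial network.

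Library totals were 10087743 reads for sort 1 and 9264150 for sort 2. Detection meant reaching 1 RPKM in each sort. All 6 eosinophil markers were detected, with summed RPKM of 2410 in sort 1 and 3117 in sort 2. All 7 neutrophil markers were detected too, at summed RPKM of 3384 and 3362, of which the granulocyte gene Retnlg gave 2321 and 2439. Of the monocyte markers 3 of 5 were detected (summed RPKM 69.3 and 72.9) and of the B cell markers 1 of 3, while 0 of 7 erythroid, 0 of 3 T cell and 0 of 3 muscle markers were, and the muscle gene Ckm had no read. The part of neutrophil and other RNA in the levels below was not tested, and in bulk RNA fewer cells of a type and less RNA per cell cannot be told apart. Among the genes outside the pathway that differed between the sorts, Xist had 47487 and 5 reads, the Y-linked Kdm5d 0 and 756, and the ribosomal RNA precursor Rn45s 914623 and 89209. Xist reads were thus nearly all in sort 1 and Kdm5d reads all in sort 2, while the labels give no sex. A difference of sex between the sorts cannot be told apart from their other differences.

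Most genes of the respiratory chain were transcribed at moderate levels, with Atp5b, the catalytic subunit of ATP synthase, far above the rest. Of the 86 genes, 68 were detected, against 30.2% of all genes. Their median RPKM was 5.34 in sort 1 and 4.50 in sort 2, a mean of 4.92 ± 0.597 (SD, n = 2), while the median of all genes was 0.108 in sort 1 and 0.0896 in sort 2 and that of all detected genes was 4.07 and 3.97. In both sorts 48 of the 86 lay above the median of the detected genes, 14 reached 10 RPKM, and 16 stayed under 1 RPKM. Together they took 0.265% of the reads in sort 1 (95% Wilson interval 0.262 to 0.269) and 0.267% in sort 2 (0.264 to 0.270); these intervals cover counting error only. With Rn45s left out of the total the shares were 0.292% and 0.270%, so that sort 1 was the higher.

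The order of the complexes depended on which genes were counted. Complex V had median RPKM values of 7.03 and 7.17 over 17 genes and complex IV 7.01 and 6.93 over 18, so complex V was higher in both sorts by a small margin. Complex II, with 7.68 and 5.86 over 4 genes, spanned both. Without its 7 tissue-restricted isoforms, none of which was detected, complex IV had a mean of the 2 medians of 11.1 RPKM, above complex V at 7.48 without Atp5s and Atp5sl. Complex III had medians of 5.28 and 4.55 over 9 genes and complex I 5.11 and 3.69 over 37. Complex III was thus higher within each sort, although the ranges over both sorts overlapped. Complex V held 43.9% of the reads of all 86 genes in sort 1 and 47.4% in sort 2, and Atp5b by itself held 20.6% and 23.7%.

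**Figure D1:**
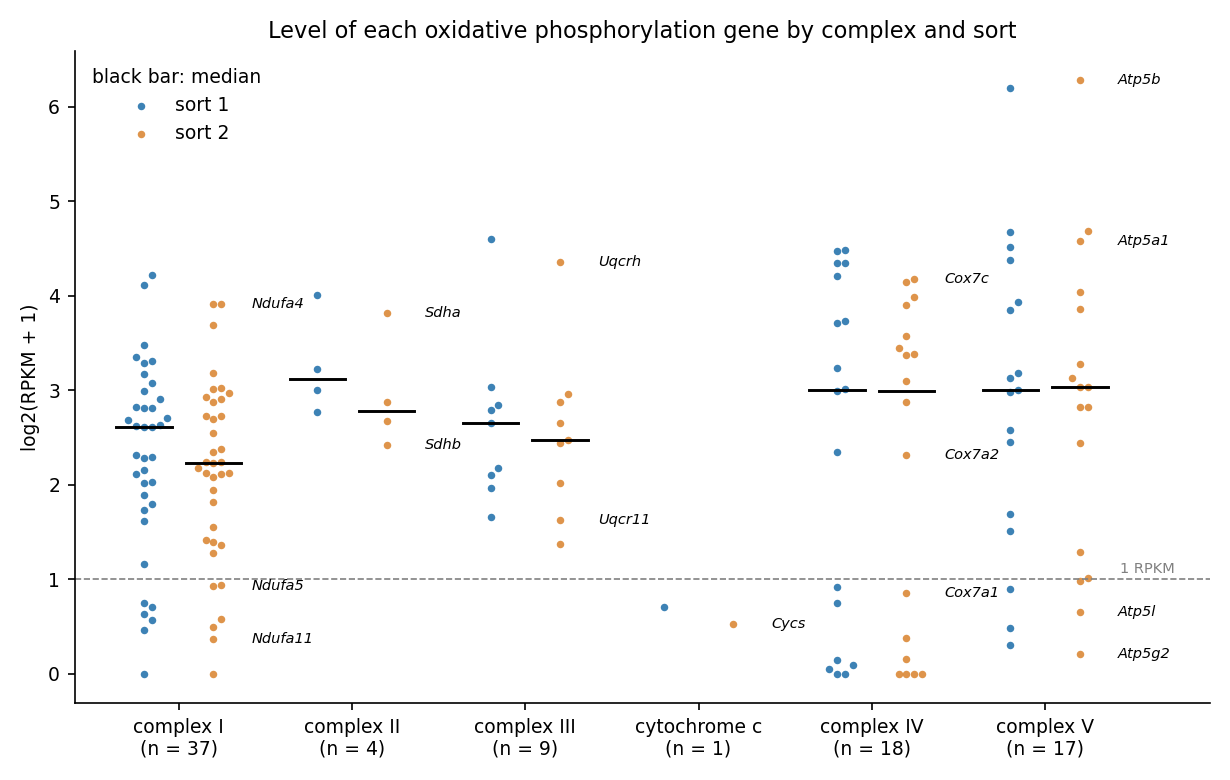
Level of each of the 86 genes, as log2(RPKM + 1), in sort 1 (blue) and sort 2 (orange), grouped by complex; black bars are medians, the dashed line marks 1 RPKM, and labels name the highest and some of the low genes. Atp5b stands above all other genes at 72.4 and 76.8 RPKM, and 16 genes lie under the line in both sorts.

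In complex I, NADH dehydrogenase, 30 of 37 genes were detected. The highest was Ndufa4, at 17.7 RPKM in sort 1 and 14.1 in sort 2, whose protein carries a complex I name and is now counted as a subunit of complex IV. Ndufb9, an accessory subunit of the membrane arm, followed at 16.4 and 14.0 RPKM. The small accessory subunit Ndufa1, encoded on the X chromosome, had 9.22 and 11.9 RPKM. The accessory subunit Ndufs6 had 8.78 and 6.81 RPKM. Ndufa4 and Ndufb9 were the highest 2 in both sorts, and the order below them changed between the sorts.

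The 7 nuclear-encoded core subunits of complex I, which carry the flavin and iron-sulfur centres or shape the quinone site, had medians of 3.09 RPKM in sort 1 and 3.31 in sort 2. The 28 accessory subunits had medians of 5.15 and 3.90, a gap smaller than the range among the core genes themselves. Among the core genes Ndufs8 had 5.19 and 3.74 RPKM, Ndufs7 3.32 and 3.74, Ndufs1 3.09 and 3.31, and Ndufv2 2.47 and 1.63. Ndufv1, the subunit that binds NADH and flavin mononucleotide, had 2.06 and 0.919 RPKM, and Ndufs3 had 0.683 and 1.41. Ndufv1 and Ndufs3 were therefore each under the detection level in 1 of the sorts, while the other 5 core genes were not.

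A few accessory subunits of complex I had very few reads. Ndufb4 had 10 reads in sort 1 and 9 in sort 2 (0.544 and 0.488 RPKM). Ndufs5, which overlaps BC002163 on the same strand, had 10 and 8 (0.485 and 0.411 RPKM). Ndufa5 had 14 and 20 (0.630 and 0.897 RPKM). Ndufa11 was at 0.380 and 0.287 RPKM from 41 and 31 reads. Its reads and RPKM implied a length of 2667 bases, against 545 for the linked GENCODE transcript, so its RPKM is lower than one computed over that transcript. Ndufa4l2, a paralogue of Ndufa4 known as a hypoxia target, had no read in either sort, which allows up to 0.0795 RPKM in sort 1 and 0.0793 in sort 2 at a limit of 3 reads.

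All 4 genes of complex II, succinate dehydrogenase, were detected. Sdha, the flavoprotein that oxidises succinate, was highest at 15.1 RPKM in sort 1 and 13.1 in sort 2. The membrane anchor Sdhd had 8.32 and 5.39 RPKM, the anchor Sdhc 7.04 and 6.33, and the iron-sulfur subunit Sdhb 5.80 and 4.34. Sdha stood above the other 3 in both sorts and Sdhb was the lowest in both, while the order of Sdhd and Sdhc changed between the sorts.

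All 9 genes of complex III, the cytochrome bc1 complex, were detected as well. Uqcrh, the hinge protein near cytochrome c1, led at 23.3 RPKM in sort 1 and 19.6 in sort 2. The electron-carrying and core subunits were lower, with Cyc1, cytochrome c1, at 7.18 and 6.35 RPKM, Uqcrc2 at 5.28 and 6.78, Uqcrc1 at 6.17 and 4.55, and Uqcrfs1, the Rieske iron-sulfur protein, at 3.31 and 4.45. Of the small accessory subunits Uqcr10 had 5.94 and 5.31 RPKM, Uqcrb 2.90 and 3.04, Uqcrq 3.51 and 1.58, and Uqcr11 2.15 and 2.09. Uqcrh was thus above every other member of the complex in either sort, and the rest lay between 1.58 and 7.18 RPKM.

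Cycs, the somatic cytochrome c, was low beside the complexes that it connects. It had 78 reads and 0.630 RPKM in sort 1 and 54 reads and 0.435 RPKM in sort 2, under the detection level in both. Cyc1, its electron donor, and every widely expressed Cox gene of its acceptor were above it in both sorts.

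Complex IV, cytochrome c oxidase, split into widely expressed and tissue-restricted isoforms. All 10 widely expressed subunit genes were detected, with medians of 12.2 RPKM in sort 1 and 9.68 in sort 2. The highest were Cox7c at 21.4 and 17.1 RPKM, Cox6a1 at 21.3 and 14.9, Cox8a at 19.4 and 14.0, and Cox4i1 at 19.3 and 9.90. Cox5b had 12.1 and 11.0 RPKM, Cox6b1 12.3 and 9.46, Cox5a 8.42 and 9.40, Cox6c 7.07 and 6.32, Cox7b 6.96 and 7.55, and Cox7a2 4.09 and 3.98. Cox7a2l, which joins complexes III and IV into supercomplexes, had 17.5 and 16.8 RPKM. C57BL/6 mice are known to carry a shortened form of the Cox7a2l protein, and these gene totals say nothing of the form.

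None of the 7 tissue-restricted Cox isoforms was detected. Cox4i2, an isoform known from lung, and Cox7b2, known from testis, had no reads, which allows up to 0.102 RPKM for Cox4i2 and 0.137 for Cox7b2 in each sort. Of the isoforms of heart and skeletal muscle, Cox6a2 had 1 read in sort 1 and 3 in sort 2, against 460 and 322 for Cox6a1, and Cox8b had 1 and 0, against 428 and 309 for Cox8a. The testis isoform Cox8c had 2 and 0 reads, and Cox6b2 had 18 and 6, against 252 and 194 for Cox6b1. The 2 table rows behind Cox6b2 carry identical counts, so its sum may count the same reads again.

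Cox7a1, the heart and muscle isoform of the Cox7a subunit, was the least unequal of these pairs. It had 10 reads and 0.675 RPKM in sort 1 and 12 reads and 0.807 RPKM in sort 2, against 125 reads and 4.09 RPKM, and 122 reads and 3.98 RPKM, for Cox7a2. Its RPKM was 16.5% of that of Cox7a2 in sort 1 and 20.3% in sort 2, while Cox6b2 reached 7.19% and 3.11% of Cox6b1. No 50-base stretch of the Cox7a1 transcript occurred at another locus, and the muscle markers Acta1, Ckm and Myh7 summed to 0.0873 and 0.0331 RPKM. Which cells the Cox7a1 reads came from was not tested.

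**Figure D2:**
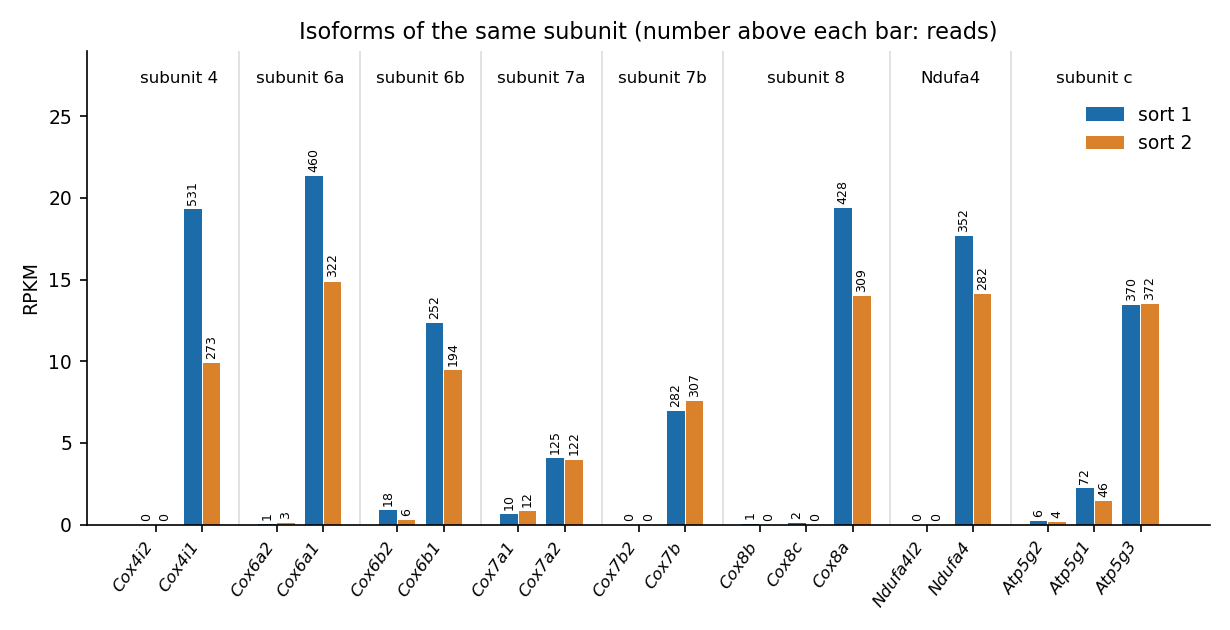
RPKM of isoforms of the same subunit in sort 1 (blue bars) and sort 2 (orange bars), with tissue-restricted or minor isoforms left of the main one and the number of reads above each bar. In every family 1 isoform held most of the signal, and Cox7a1 and Atp5g1 were the isoforms that came closest to their main partner, at 16.5% of it each in sort 1. The bars of Atp5g1 and Cox6b2 each sum 2 rows with identical counts and may count the same reads again.

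Complex V, ATP synthase, had 14 of 17 genes detected and its catalytic head stood out. The 5 genes of the F1 head had medians of 21.9 RPKM in sort 1 and 22.97 in sort 2. Atp5b, the catalytic beta subunit, was the highest of all 86 genes at 72.4 and 76.8 RPKM, a mean of 74.6 ± 3.13 (SD, n = 2). The alpha subunit Atp5a1 had 24.6 and 22.97 RPKM and the gamma subunit Atp5c1, the central stalk, 21.9 and 24.8. Alpha and beta form the hexamer of the head in equal number, yet the RPKM of Atp5b was above that of Atp5a1 in both sorts. The other stalk subunits were lower, with Atp5d, delta, at 14.3 and 7.17 RPKM and Atp5e, epsilon, at 8.05 and 6.07.

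The peripheral stalk that holds the head in place had medians of 7.41 RPKM in sort 1 and 8.23 in sort 2 over 4 genes. Atp5h, its subunit d, had 19.7 and 15.5 RPKM, Atp5f1, subunit b, 7.03 and 8.72, Atp5j, coupling factor 6, 7.78 and 7.74, and Atp5o, the oligomycin sensitivity protein, 4.99 and 4.43. Of the membrane subunits Atp5j2 had 6.88 and 7.18 RPKM and Atp5k 4.48 and 6.07, while Atp5l had 18 and 12 reads and 0.866 and 0.576 RPKM. Atp5s and Atp5sl match by symbol and are not structural subunits; they had 0.399 and 0.978 RPKM, and 1.85 and 1.01.

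The c-ring of complex V turns with the proton flow and is built from 1 protein that 3 genes encode. Atp5g3 supplied most of the signal, with 370 reads and 13.5 RPKM in sort 1 and 372 reads and 13.5 RPKM in sort 2. Atp5g1 had 72 and 46 reads, or 2.22 and 1.44 RPKM, which was 16.5% and 10.7% of Atp5g3. Atp5g2 had 6 and 4 reads, or 0.229 and 0.152 RPKM. The 2 table rows of Atp5g1 carry identical counts, so its sum may count the same reads again. Its place among the detected genes was not checked with 1 row alone. The last 90 coding bases of the 3 genes, without the stop codon, are shown here because they encode the same 30 residues with different codons. Capitals mark the 24 positions at which the genes are not all alike.
Atp5g1: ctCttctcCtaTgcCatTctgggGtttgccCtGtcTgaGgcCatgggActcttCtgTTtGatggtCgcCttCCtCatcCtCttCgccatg
Atp5g2: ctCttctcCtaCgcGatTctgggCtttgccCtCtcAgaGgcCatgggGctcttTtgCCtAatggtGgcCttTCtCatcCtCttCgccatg
Atp5g3: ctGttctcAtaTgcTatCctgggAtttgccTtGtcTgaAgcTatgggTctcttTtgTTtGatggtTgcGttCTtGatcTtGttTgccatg
These come from GENCODE vM21 transcripts, from genes on chromosomes 11, 15 and 2 for Atp5g1, Atp5g2 and Atp5g3. Atp5g1 differs from Atp5g3 at 17 of these positions and Atp5g2 at 23, so a read over this stretch can be told apart among the 3 genes. Copies at other loci were not part of this comparison.

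Several of the low genes share sequence with processed pseudogenes, gene copies made from spliced RNA. Each transcript was cut into all of its 50-base windows, and a window counted as shared when a GENCODE vM21 transcript of another locus held it on either strand. No source used here says how the authors treated reads that match several loci, and the part of such copies in the levels was not tested. Atp5g2 had the highest share of such windows at 87.4%, followed by Atp5l at 84.8%, with 12 of 14 other loci holding a pseudogene. Atp5g1 had 66.0%, while Atp5g3, the highest of the subunit c genes, had no shared window. Ndufs5 had 41.2% and Ndufb4 37.0%, the latter with 3 pseudogene loci. Cycs had 28.5%, spread over 76 other loci of which 13 held a pseudogene. A coding window of each of Atp5g2, Atp5l and Cycs is shown, all of whose bases occur elsewhere, so none is in capitals.
Atp5g2: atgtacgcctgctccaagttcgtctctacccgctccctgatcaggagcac
Atp5l: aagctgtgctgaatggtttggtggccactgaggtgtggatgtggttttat
Cycs: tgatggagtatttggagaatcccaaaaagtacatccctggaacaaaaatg
The Atp5g2 window holds coding bases 1 to 50 and recurs at 2 loci, Gm10175 and Gm10231. The Atp5l window holds coding bases 215 to 264 and recurs at 9 loci, among them Atp5l-ps1 and Gm10221, and the Cycs window holds bases 194 to 243 and recurs at 6. On mm10 the deposited rows place Atp5g2 at chr15:102662868-102671047, Atp5l at chr9:44913248-44920742 and Cycs at chr6:50562563-50566474, each on the minus strand.

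Shared sequence went with lower detection among the subunits, with exceptions on both sides. The tissue-restricted isoforms, Ndufa4l2, Atp5s and Atp5sl were left out here, which leaves 76 genes. Of the 17 with at least 25% of windows shared, 11 were detected (64.7%), with medians of 2.90 RPKM in sort 1 and 2.86 in sort 2. Of the 59 with less, 56 were detected (94.9%), with medians of 6.52 and 6.07. Over all genes the same division gave 21.5% and 31.9% detected.

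The measured exceptions are large. Cox7c had 53.0% of its windows shared and still 21.4 and 17.1 RPKM, and Atp5h had 50.5% and 19.7 and 15.5 RPKM. Outside the pathway Gapdh had 82.5% and 116 and 105 RPKM. On the other side Ndufa5 and Ndufv1 had no shared window and were among the low genes. Over the 76 genes the level on the log2(RPKM + 1) scale and the shared percentage had a Pearson r of −0.34 and a Spearman rho of −0.15; the points share both libraries and are not independent.

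**Figure D3:**
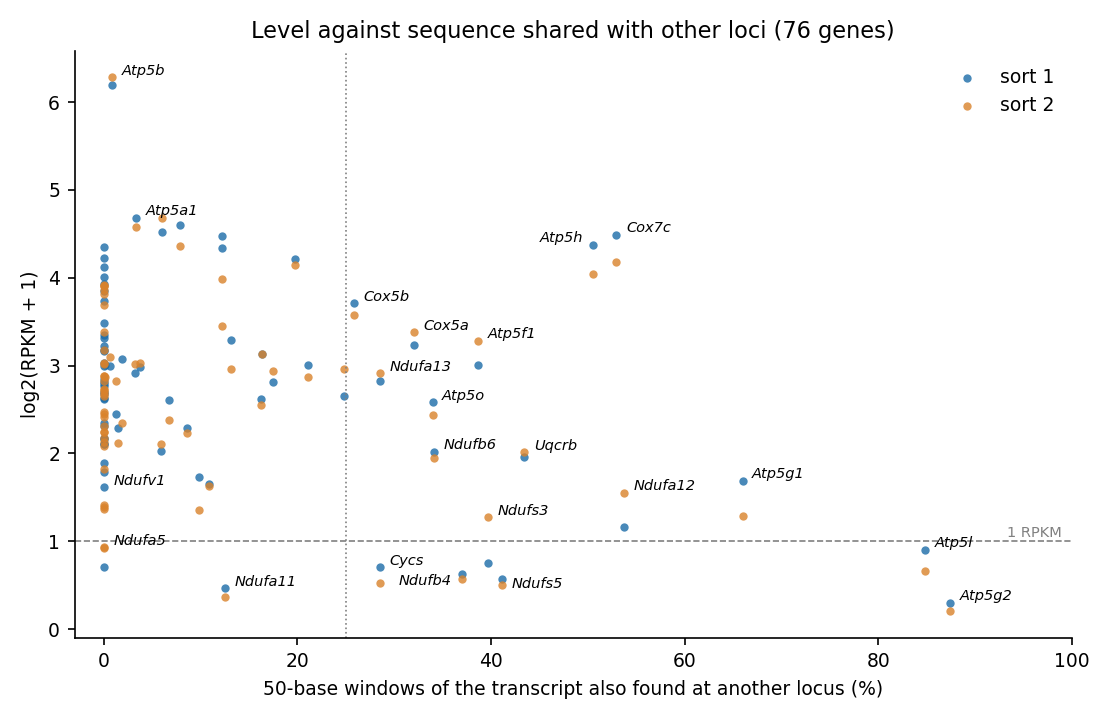
Level of 76 genes, as log2(RPKM + 1), in sort 1 (blue) and sort 2 (orange), against the percentage of 50-base transcript windows that also occur at another locus; the dotted line marks 25% and the dashed line 1 RPKM. Of the 17 genes at or right of the dotted line 11 were detected, among them Cox7c and Atp5h at high levels, while Atp5l and Atp5g2 lie at the lower right.

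The ranking of the genes was alike in the sorts, with a Spearman rho of 0.956 over the 86 genes, beside 0.955 over all genes. The Pearson r on the log2(RPKM + 1) scale was 0.97, beside 0.99 over all genes. These values are a description. Differences between the libraries were sought with an exact binomial test on the reads, with Benjamini-Hochberg adjustment over the 12347 genes that had 10 or more reads. This test compares 2 libraries with sampling noise, not conditions, and its p-values hold no spread between animals. With an adjusted p below 0.05 and a difference of 2-fold or more, 3 of the 80 genes tested were higher in sort 1, against 4.9% of all genes tested, and 2 were higher in sort 2, against 3.05%. Both counts are near the background. Without the fold limit 21 of the 80 were higher in sort 1, against 21.6% of all genes, and 8 in sort 2, against 22.8%.

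Ndufb7, an accessory subunit of complex I, had 193 reads in sort 1 and 76 in sort 2, a log2 ratio of sort 1 to sort 2 of 1.26 (exact binomial test, adjusted p = 8.33e-11). Ndufv1 had 134 and 60 reads, a log2 ratio of 1.07 (exact binomial, adjusted p = 3.70e-06). Uqcrq had 71 and 32 reads, a log2 ratio of 1.04 (exact binomial, adjusted p = 0.00132). These 3 were higher in sort 1, and the core subunit Ndufs3 and Atp5s were the 2 higher in sort 2. Ndufs3 had 26 and 54 reads, a log2 ratio of −1.06 (exact binomial, adjusted p = 0.00356), and Atp5s had 24 and 59, a log2 ratio of −1.29 (exact binomial, adjusted p = 0.000271).

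Atp5d and Cox4i1, both abundant, came close to the fold threshold without reaching it. Atp5d had 539 and 271 reads, a log2 ratio of 0.92 (exact binomial, adjusted p = 2.24e-17), and Cox4i1 had 531 and 273, a log2 ratio of 0.89 (exact binomial, adjusted p = 3.60e-16). In contrast Atp5b, with 5507 and 5859 reads, had a log2 ratio of only −0.16 (exact binomial, adjusted p = 5.45e-08). Of the 80 genes 67 lay within a 1.5-fold difference either way. With the dispersion that edgeR estimates from both libraries as 1 group, its exact test called none of the 80 after adjustment, and 3 of them (Ndufb7, Ndufv1 and Atp5s) had an unadjusted p under 0.05, beside 33 of all 12347 genes called and 760 with such an unadjusted p.

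Other measures moved with the sorts. The eosinophil markers summed to 2410 RPKM in sort 1 and 3117 in sort 2, while the 7 neutrophil markers summed to 3384 and 3362. Among those 7, Ngp, Ltf and Camp were lower in sort 2 and Mpo, Elane, S100a8 and Retnlg were not. The part of these markers in the differences between the sorts was not tested. Of the 3 genes on the X chromosome Ndufa1 was higher in sort 2, with 184 and 239 reads, a log2 ratio of −0.44 (exact binomial, adjusted p = 0.00580). Cox7b and Ndufb11, at −0.19 and −0.21, did not pass the adjusted p. The part of sex in these ratios was not tested.

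The ratio between the sorts moved with the GC content of the transcript. Across all genes with at least 100 reads the Spearman rho of log2 ratio and GC content was 0.54 (n = 8674), and over 67 of the genes described here it was 0.35. In the GC-richest range, from 54.6% to 61.1%, 19 of 22 of these genes were higher in sort 1, beside 1490 of 1885 for all genes in that range. Their median log2 ratio was 0.37, beside 0.27 for all genes there. In the middle range, from 49.4% to 54.4%, their median was 0.015, below the 0.070 of all genes. In the GC-poorest range, from 40.8% to 49.1%, their median was 0.02, beside −0.17 for all genes. After a correction for GC content, Ndufs3 and Uqcrq kept a fold of 2, with log2 ratios of −1.22 and 1.04, while Ndufb7, Ndufv1 and Atp5s had 0.89, 0.80 and −0.90. The linked transcript of Uqcrq has 1521 bases, while its reads and RPKM implied 500. Its GC content may therefore not be that of the counted transcript, and lengths also differed for other genes, such as Sdhc (3171 and 1182 bases). The median log2 ratio over the 80 genes was 0.10, beside 0.000307 for all genes tested.

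**Figure D4:**
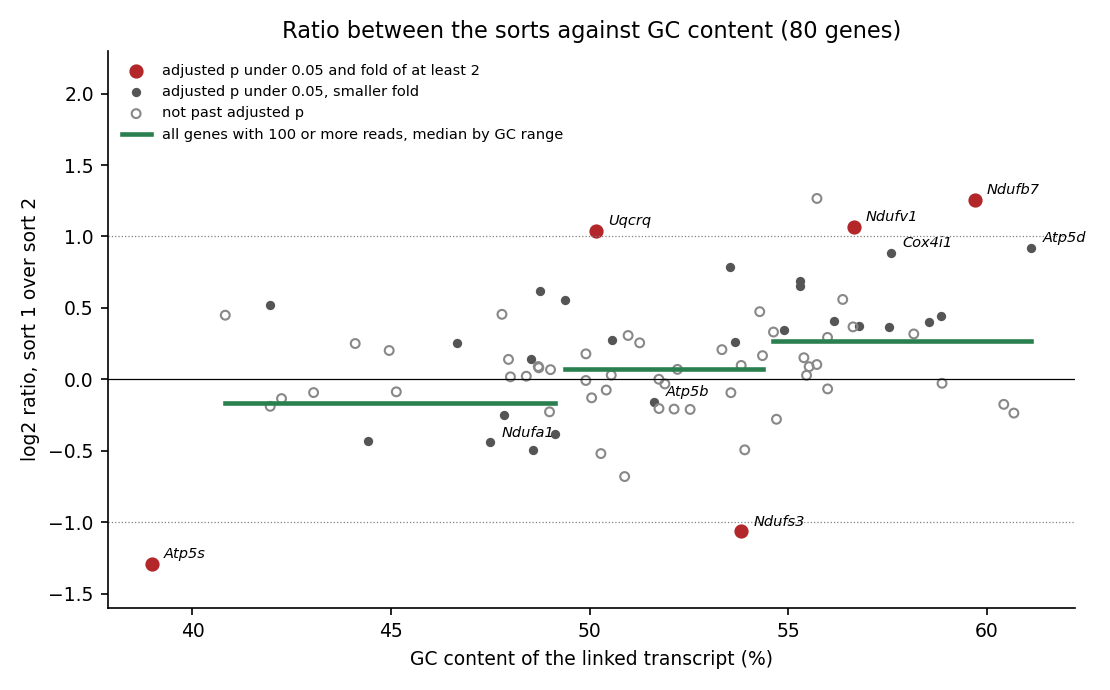
Log2 ratio of sort 1 over sort 2 for the 80 tested genes against the GC percentage of the linked transcript; red points pass an adjusted p of 0.05 and a fold of 2, grey points pass the adjusted p only, open points do not, and green bars give the median of all genes with at least 100 reads in 3 ranges of GC content. The bars step upward from −0.17 to 0.27, and Ndufb7, Ndufv1, Cox4i1 and Atp5d lie in the GC-richest range.

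Genes that build or feed the chain were at quite different levels. Assembly factors, which insert cofactors and join subunits, were mostly under the detection level, as were most genes in the data, of which 30.2% were detected. For complex I 3 of 14 factors were detected, for complex II 1 of 4 and for complex III 2 of 6. For complex IV it was 9 of 20 and for complex V 1 of 4. Medians were 0.630 RPKM in sort 1 and 0.517 in sort 2 for complex I factors and 1.28 and 1.01 for complex IV factors. The complex I factors were led by Tmem126b at 2.41 and 3.40 RPKM, Ndufaf3 at 2.61 and 1.66, and Ndufaf2 at 1.49 and 1.27. Cox17, the copper chaperone of complex IV, had 12.6 and 14.0 RPKM, Coa5 11.6 and 9.04, and Cox20 4.79 and 8.63.

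Of the remaining factors, Sdhaf2, which attaches flavin to Sdha, had 2.64 and 2.80 RPKM and 1110058L19Rik had 0.185 and 0.554. For complex III, Ttc19 had 2.90 and 3.07 RPKM, AI462493 2.05 and 1.45, and Mnf1 1.04 and 0.521. For complex V, 1110001J03Rik had 1.34 and 1.56 RPKM and Tmem70 0.870 and 1.31. By the same 2-fold rule, which 4.9% of all genes passed as higher in sort 1 and 3.05% as higher in sort 2, 4 of the 46 factors tested were higher in sort 1. They were Nubpl with 24 and 8 reads, Lyrm7 with 23 and 6, Coa3 with 112 and 30, and Atpaf2 with 92 and 32. Sdhaf1 with 5 and 19 reads and Cox18 with 9 and 27 were higher in sort 2.

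The tricarboxylic acid cycle, which feeds NADH and succinate to the chain, had 11 of 13 genes detected with medians of 6.86 RPKM in sort 1 and 6.30 in sort 2. Its leaders were Mdh2, malate dehydrogenase, at 63.1 and 47.7 RPKM, Cs, citrate synthase, at 18.7 and 17.5, and Dlst at 11.6 and 10.7. Fatty acid oxidation had 10 of 12 detected with medians of 3.94 and 4.48; its leaders were Cpt1a, the carnitine gate, at 10.7 and 10.5, Etfb at 7.35 and 5.04 and Etfa at 5.46 and 6.85. Pyruvate entry had 6 of 10 detected with medians of 2.06 and 2.03; its leaders were Pdhb at 7.86 and 9.02, Pdha1 at 3.30 and 3.56 and Mpc2 at 2.69 and 3.58. The pyruvate entry list also holds the pyruvate dehydrogenase kinase genes Pdk1 to Pdk4. Over the whole list its medians were below those of the cycle in both sorts.

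Carriers and channels of the mitochondrial membranes had 8 of 11 genes detected and medians of 10.9 RPKM in sort 1 and 11.1 in sort 2. Ucp2, a carrier of the uncoupling protein family common in leukocytes, had 67.8 and 52.4 RPKM, below Atp5b at 72.4 and 76.8. The phosphate carrier Slc25a3 had 21.7 and 22.8 RPKM and the porin Vdac2 19.9 and 18.9. Among regulators of mitochondrial genes 5 of 12 were detected, led by Gabpa at 8.09 and 10.1 RPKM, Yy1 at 9.04 and 8.45 and Hif1a at 5.32 and 6.18. Nrf1 had 5.94 and 4.57 RPKM, while the coactivator Ppargc1a had 4 reads in sort 1 and 0 in sort 2. Esrra, an orphan nuclear receptor, was higher in sort 1 with 157 and 73 reads.

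Glycolysis had 11 of 17 genes detected and medians of 4.16 RPKM in sort 1 and 3.17 in sort 2, with a wider range than the chain. Gapdh had 116 and 105 RPKM, Aldoa, aldolase, 85.9 and 60.0, and Ldha, lactate dehydrogenase, 72.2 and 54.2. Pfkm, the muscle phosphofructokinase, was higher in sort 1 with 15 and 3 reads, and Eno1, enolase, was higher in sort 2 with 0 and 59 reads; 72.2% of the Eno1 windows are shared with other loci. Higd2a and Higd1a, proteins bound to cytochrome c oxidase, had 6.61 and 5.58, and 1.58 and 1.53 RPKM.

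Mitochondrial ribosomal proteins, which make the chain's mitochondrial subunits, had 43 of 76 genes detected and medians of 1.27 RPKM in sort 1 and 1.31 in sort 2. They were led by Mrpl33 at 22.5 and 27.2 RPKM, Mrpl30 at 8.65 and 11.5 and Mrps21 at 8.19 and 5.02. Mrpl14, Mrps26 and Mrps11 were higher in sort 1, and Mrps2, Mrps22, Mrpl55 and Mrpl47 in sort 2, by the same rule; these were 3 and 4 of 75 tested, against 4.9% and 3.05% of all genes. Cytosolic ribosomal proteins had 78 of 83 detected with medians of 24.4 and 18.4; among their leaders were Rpl4 at 75.5 and 86.7 RPKM and Rpl31 at 58.8 and 82.8. Rps14, with 520 and 170 reads, and Rpl30, with 70 and 23, were higher in sort 1.

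**Figure D5:**
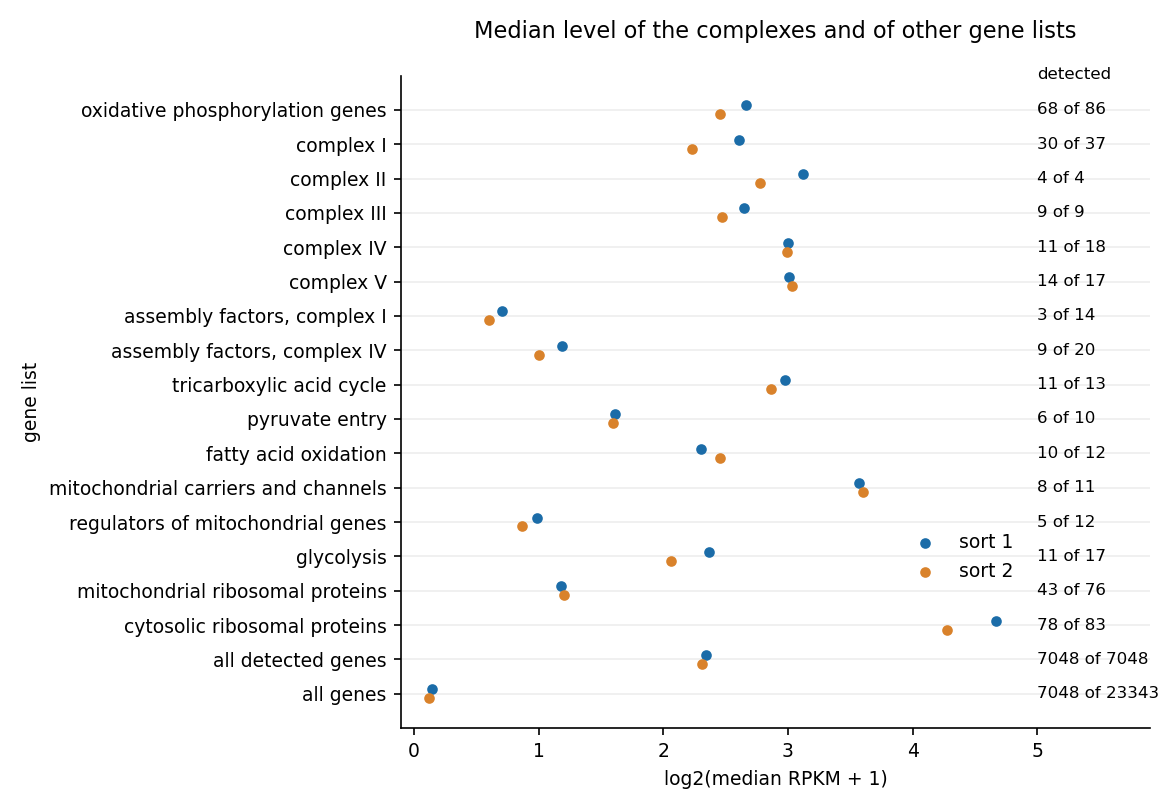
Median level of each gene list, as log2(median RPKM + 1), in sort 1 (blue, upper) and sort 2 (orange, lower), with the number detected of the number measured at the right. The 5 complexes, the tricarboxylic acid cycle and the carriers lie at or above the detected genes, apart from complex I in sort 2, and the assembly factors of complexes I and IV lie at the left.

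Promoters were compared because many respiratory genes are known to be regulated by shared factors. RefSeq promoters on GRCm38.p6, from 250 bases before to 50 after the gene start, were found for 70 of the 86 genes. The NRF1 core GCGCATGC, searched on both strands, occurred in 11 of 70 (15.7%), against 6.34% of 5675 detected genes and 3.05% of all 27025 promoters of that length. The ETS core CCGGAAG occurred in 22.9%, against 23.9% and 9.93%, and the YY1 core AAGATGG in 17.1%, against 9.50% and 7.28%. The TATA box letters TATAAA occurred in 7 of 70, against 8.44% and 15.7%. A match is a description of letters, and binding was not measured.

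Genes with the NRF1 core were not the higher ones. The 11 had medians of 3.98 RPKM in sort 1 and 3.37 in sort 2, and 7 were detected, while the 59 without it had 5.51 and 4.86, and 49 were detected. The 11 were Atp5g2, Atp5k, Atp5l, Cox6a1, Cycs, Ndufa11, Ndufa6, Ndufa8, Sdhb, Uqcr11 and Uqcrc1. Those not detected were Atp5g2, Atp5l, Cycs and Ndufa11. Shared windows were 87.4% for Atp5g2, 84.8% for Atp5l and 28.5% for Cycs. The RPKM of Ndufa11 implied a length of 2667 bases, against 545 for its linked transcript. The part of these limits in the lower medians was not tested. Stretches around the match are shown for 5 of the 11, chosen to span high and low levels, with the match in capitals on the strand of the gene.
Cox6a1: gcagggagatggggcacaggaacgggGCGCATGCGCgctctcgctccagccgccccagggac
Sdhb: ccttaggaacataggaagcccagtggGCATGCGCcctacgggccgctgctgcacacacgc
Cycs: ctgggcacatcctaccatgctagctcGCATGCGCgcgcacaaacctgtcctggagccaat
Ndufa11: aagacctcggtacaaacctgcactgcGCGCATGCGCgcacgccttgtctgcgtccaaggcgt
Atp5g2: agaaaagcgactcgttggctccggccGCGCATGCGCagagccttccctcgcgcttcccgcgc
Where the capitals run to 10 bases, the core and its reverse complement overlap. The stretches lie upstream of the RefSeq start at chr5:115349085-115349146 for Cox6a1, chr6:50566596-50566655 for Cycs and chr15:102671054-102671115 for Atp5g2, all on the minus strand, and at chr4:140961191-140961250 for Sdhb and chr17:56717676-56717737 for Ndufa11 on the plus strand. The match begins 162 bases before the start in Cox6a1, 54 in Sdhb, 60 in Cycs, 60 in Ndufa11 and 42 in Atp5g2. Cox6a1 at 21.3 and 14.9 RPKM and Atp5g2 at 0.229 and 0.152 hold the same core letters. The Atp5g2 values rest on 6 and 4 reads, with 87.4% of its windows shared. The relation of motif and level was not tested.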

How the data were processed

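Counts and RPKM per group of RefSeq transcripts were deposited by the authors for 2 libraries of 1 group. Reads were aligned with STAR 2.4.0c to mm10, per the submitters' processing notes; the sources used here do not name the counting program, its strand setting or its treatment of reads with several matches. Opposite-strand genes overlap 11 of the 86 genes described (Atp5f1 and Atp5j among them), and same-strand genes overlap 2, Ndufs5 by BC002163 and Atp5b by Mir677. Reads of such partners may not be separable. The counts summed to 10087743 and 9264150, about 25.0% and 22.9% of the read total that the deposited RPKM values imply, so RPKM are lower than the table totals would give, by a similar factor in both libraries.

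Counts and RPKM were summed over rows of the same symbol (26099 rows, 23343 genes; 89 rows for the 86 genes). Detection required 1 RPKM in each library. Log2 ratios used CPM after TMM scaling, prior count 2. The exact two-sided binomial test used TMM-scaled library sizes, since edgeR's quasi-likelihood test could not be used with 1 group; nothing in the labels ties animals to libraries, so p-values measure only the spread of reads between these samples. The test was tested on simulated data. GC content and shared windows came from GENCODE vM21 transcripts linked by RefSeq accession (86 of 86 genes), and the GC correction subtracted a lowess trend with a fraction of 0.3. Tools were R 4.3.3, edgeR 4.0.16, DESeq2 1.42.0, Python 3.11.15, scipy 1.17.1 and statsmodels 0.14.6.

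The genes, lists and tests were chosen with earlier results of these data known. Values are given for the 5 highest and 3 lowest genes of each complex by mean RPKM, all of complexes II and III, isoform families, called genes, and the 3 highest and any called gene of each other list; any of the 86 could be named, and Nrf1, Ppargc1a and Gapdh's shared windows were named after their values were seen. Of the genes this rule takes, some are not reported here. Alternatives were other detection minimums, means, detected genes only, rescaled RPKM, other scalings, count filters, folds, prior counts, edgeR's exact test, the GC correction and leaving out each sort.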

Additional observations from a re-analysis of the deposited data

How the results depend on the processing

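The number of detected genes, 68, ranged from 61 to 75 over other minimums and was 69 with either sort left out. The median RPKM of all 86 genes, 4.92, was 7.10 as a mean, 6.45 over detected genes and 60.5 after rescaling each library to a fixed RPKM total, and 4.50 to 5.34 with a sort left out. Means in place of medians gave 8.18 for complex II, 6.30 for complex III, 7.59 for complex IV and 12.2 for complex V. Detected genes only gave 11.1 for complex IV and 7.69 for complex V. Leaving out tissue-restricted isoforms, Atp5s and Atp5sl, a choice made after seeing the data, gave 11.1 and 7.48. With a sort left out, medians ranged from 3.69 to 5.11 for complex I, 5.86 to 7.68 for complex II, 4.55 to 5.28 for complex III, 6.93 to 7.01 for complex IV and 7.03 to 7.17 for complex V. The mean share of reads, 0.266%, was 0.281% without Rn45s (0.292% in sort 1 and 0.270% in sort 2) and 0.265% to 0.267% with a sort left out. The 5 genes called between the sorts (7.95% of all genes in either direction) became 11 at a fold of 1.5 (18.2% of all genes), 2 after the GC correction (6.43%) and 0 by edgeR's exact test (0.267%), and 4 with total counts for scaling (7.66%), where Uqcrq was lost; DESeq2 size factors and other count filters gave 5. The median log2 ratio over the 80 genes, 0.10, was 0.046 with total counts and 0.14 from deposited RPKM, and stayed positive under the other settings run. No paired analysis was possible because there is 1 group. With 2 libraries an SD is imprecise, and genes with few reads, such as Atp5g2, carry a wide counting error.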
